A study of Arabidopsis thaliana with 32 samples.

Results

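The transcriptome of sahh1 seedlings of Arabidopsis thaliana at 10 days was compared with that of sahh1 seedlings at 7 days, using 4 arrays of each age, 8 of the 32 arrays in the series. The arrays were chosen by their labelled genotype and age and by no measured value. The other arrays hold sahh1 seedlings of 1 and 4 days and Columbia wild-type seedlings of 1, 4, 7 and 10 days, again 4 of each. The labels name the mutant only as sahh1, without an allele, and give neither the growth conditions nor the hour of harvest. They do not say whether arrays came from separate cultures, so p-values measure the spread between these samples, which may be technical.

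SAHH1 encodes S-adenosylhomocysteine hydrolase, the enzyme that removes S-adenosylhomocysteine, the product and inhibitor of methyltransferase reactions. Loss of its activity lowers methylation of DNA and other targets and releases silenced loci. Between 7 and 10 days a wild-type seedling has emptied its seed reserves, expands its first true leaves and prepares the change towards flowering.

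Values are log2 of normalized array intensity, and a difference is day 10 minus day 7 on that scale. Arrays 1 and 2 of each group resembled each other more than arrays 3 and 4. The SD of the difference between 2 arrays was taken over the 15190 loci brighter than the median locus. At sahh1 day 10 it was 0.116 and 0.137 within the pairs and 0.294 to 0.299 between them. At sahh1 day 7 it was 0.159 and 0.163 against 0.361 to 0.372. Each pair was therefore averaged into 1 sample, which gave 2 samples a group. Median deposited intensity was 956 to 963 on the day 10 sahh1 arrays and 1880 to 1945 on the day 7 ones, a shift that quantile normalization removed, so a change shared by most genes cannot be seen and age cannot be told apart from hybridisation by age. The sahh1 day 4 samples stood apart from each other (SD between pairs 0.663 to 0.673 over the same brighter loci) and widen the spread estimate that all groups share. Counts without both day 4 groups are given for the main gene lists beside those of the full fit. SAHH1 itself was at 14.21 in sahh1 at day 10 and 14.73 at day 7, against 15.01 and 15.42 in wild type at those ages, and its change in sahh1 was not called (-0.53 ± 0.21, SE, adjusted p = 0.245). Where its probes lie relative to the mutation is not given, so this level does not check the labels.

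Of 30385 loci, 142 passed limma's test at a Benjamini-Hochberg adjusted p of 0.05 in sahh1, which is 0.467%. Of these, 70 were higher at day 10 (0.23%) and 72 lower (0.237%). Among the risers were the florigen gene FT, the defence-related cytochrome P450 gene CYP71A12, the transporter genes ABCG40 and BAT5, and 14 loci annotated as pseudogenes. Among the fallers were ICL of the glyoxylate cycle, the protease inhibitor gene KTI1, the mitotic genes CDC20.1, CDC20.2 and AUR2, and the chalcone synthase gene TT4. The median difference was 1.21 over the risers and -1.06 over the fallers, against -0.004 over all loci. Without the day 4 groups, a setting chosen after the data were seen, 1133 loci were higher and 1560 lower, including all 142. Leaving out any single sahh1 sample left 0 calls or, without sample 2 of day 10, 1 call, and a fit of the contrast's own groups left 0. With the sample number as a block 37 loci were called, all among the 142. Of the 27 called genes chosen by the rule for named genes, 11 passed that fit (ABCG40, CYP71A12, CYP71A21, NF-YA3, CHX16, ICL, CDC20.1, CDC20.2, ALPHA-VPE, TMM and EMB1080), and the other 16, FT among them, had adjusted p of 0.0523 to 0.0697. Arrays of the 2 ages did not overlap for 4398 loci higher at day 10 (14.5%) and 4889 lower (16.1%).

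Most of the called loci differed in the same direction in wild type. The wild-type comparison, on separate arrays, called 89 loci (0.293%), 60 higher (0.197%) and 29 lower (0.0954%), and 1195 higher (3.93%) and 1037 lower (3.41%) when the day 4 groups were left out. Of the 142 sahh1 calls 48 were also called in wild type, 33.8% of the sahh1 calls and 53.9% of the wild-type calls, and all 48 had the same direction. The sign was shared for 63 of the 70 risers and all 72 fallers. Their median differences in wild type were 0.90 and -0.81. No locus was called for a change with age that differed between genotypes (0 of 30385, 0%, with 641 loci or 2.11% at an unadjusted p under 0.05 in limma), so any such difference below rests on unadjusted p-values, whose adjusted value is 1. For genes named because they were called in sahh1, the difference between genotypes contains the sahh1 change that chose them, and it is given as a description.

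**Figure D1:**
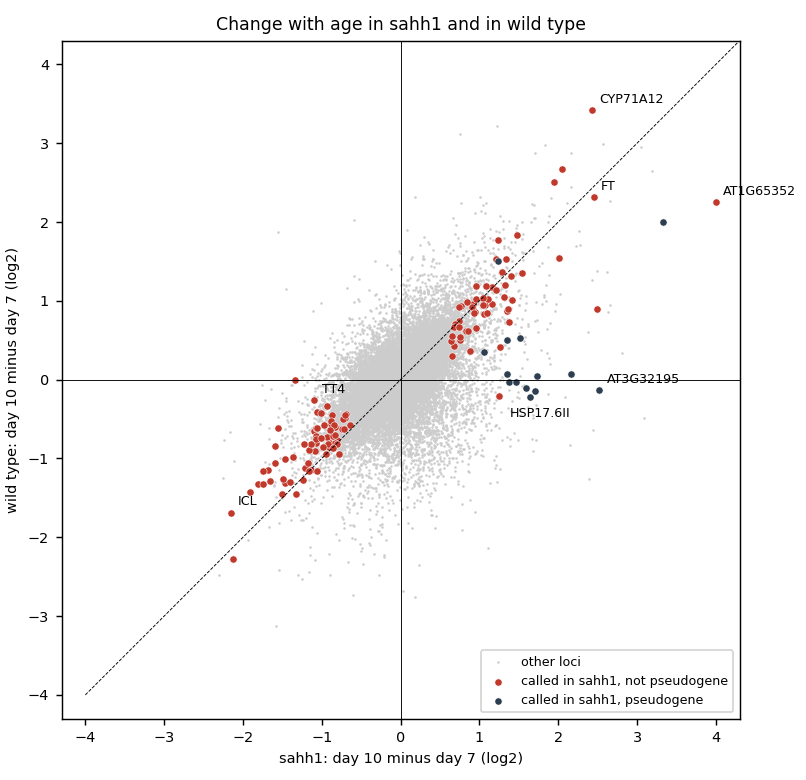
Day 10 minus day 7 (log2) in sahh1 on the horizontal axis and in wild type on the vertical axis, 1 point per locus, with the 142 loci called in sahh1 in colour and the dashed line marking equal change. All 72 fallers lie below 0 in both genotypes, whereas the 14 pseudogene loci, apart from AT3G32092 and AT2G10405, lie between -0.22 and 0.52 in wild type.

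FT, whose protein travels from leaf to shoot tip to induce flowering, had the second largest called rise among genes with a symbol, after the transporter gene ABCG40. Its 4 arrays read 8.44, 8.63, 8.24 and 8.30 in sahh1 at day 10, against 5.48, 5.73, 6.35 and 6.25 in sahh1 at day 7. Every day 10 array lay far above every day 7 array, with a difference of 2.45 ± 0.35 (SE, limma's adjusted p = 0.0267) or 5.46-fold. Wild type differed by 2.31, and the difference between the genotypes' changes was 0.14 (95% interval -0.97 to 1.24). FT in sahh1 averaged 4.28 at day 1, 4.73 at day 4, 5.95 at day 7 and 8.40 at day 10. The means of days 1 and 4 lay below the lower quartile over loci and arrays (5.505), and that of day 7 was near it.

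FT was the single member called of 24 genes of flowering and phase change. AGL24, a MADS-box promoter of flowering, was 2.17 higher (adjusted p = 0.0682), with 10.67, 10.60, 10.31 and 10.29 in sahh1 at day 10 against 8.52, 8.51, 8.09 and 8.08 at day 7. SPL3, a target of miR156 that promotes the adult phase, differed by 1.19 (0.0864). When the day 4 groups were left out both were called beside FT (0.0117 and 0.0415), 3 of 24 members higher and 0 lower, against 3.73% higher and 5.13% lower over all loci. AGL20, also known as SOC1, differed by 0.72 and the floral repressor FLC by -0.66, both with arrays that did not overlap and neither called in either fit. None of the genes of flower buds was called: LFY differed by -0.22, AP1 by 0.06 and AGL8, also known as FUL, by 0.35, with overlapping arrays in each case.

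ABCG40, a plasma membrane transporter that imports abscisic acid, had 10.60, 10.64, 10.21 and 10.44 in sahh1 at day 10, against 7.48, 7.87, 8.23 and 8.38 at day 7. The groups were far apart, and the rise was 2.49 ± 0.34 (SE, adjusted p = 0.0255), or 5.60-fold. In wild type ABCG40 differed by 0.90, which was not called, and the sahh1 change exceeded it by 1.59 (95% interval 0.52 to 2.66, unadjusted p = 0.00765).

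CYP71A12, a cytochrome P450 that acts on indole-3-acetaldoxime in the synthesis of camalexin and related defence compounds, had 11.39, 11.35, 11.08 and 11.11 in sahh1 at day 10, against 8.43, 8.49, 9.11 and 9.18 at day 7. Its rise of 2.43 ± 0.37 (adjusted p = 0.0313) stood beside one of 3.42 in wild type (0.0143). A second P450 gene of that subfamily, CYP71A21, rose by 1.31 (0.0365). Of 23 genes of salicylic acid and pathogen defence none was called in sahh1. Their median difference was 0.16 (-0.57 on values as deposited, where that of all loci was -0.691). The member with the lowest p there, the receptor-like kinase gene CRK13, differed by 1.05 (0.0596), whereas wild type was called for it at 1.5 (0.0271). RLP22, a receptor-like protein gene outside that list, rose by 1.21 (0.0366).

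CHX16, a cation and proton exchanger, had 13.37, 13.30, 13.30 and 12.93 in sahh1 at day 10, against 11.98, 11.92, 11.94 and 11.78 at day 7. The rise of 1.32 ± 0.13 had the lowest adjusted p of the named genes (0.00991), and the difference in wild type was 1.2. NF-YA3, a subunit of the CCAAT-binding factor NF-Y, rose by 1.33 (0.0206; wild type 1.53). ABCG43, another transporter of the ABCG family, rose by 1.29 (0.0328) in sahh1 and by 1.37 in wild type (0.0271). AT14A, a gene named for its similarity to integrins, rose by 1.38 (0.0313), and CLE26, a gene for a small signalling peptide, by 1.26 (0.0432). For AT14A and CLE26 the wild-type differences were smaller, 0.73 and 0.41, neither of them called.

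HSP17.6II, a class II small heat shock protein gene, had 8.49, 8.34, 8.27 and 8.01 in sahh1 at day 10, against 6.90, 7.06, 7.15 and 7.01 at day 7. The rise was 1.25 ± 0.22 (adjusted p = 0.0425). In wild type the gene differed by -0.20, and the change differed between genotypes by 1.45 (95% interval 0.77 to 2.14, unadjusted p = 0.000746). It was the single member called of 17 heat shock genes, whose median difference was 0.05, and 2 of the 17 had arrays wholly higher and 2 wholly lower at day 10 (11.8% each way, against 14.5% and 16.1% of all loci).

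**Figure D2:**
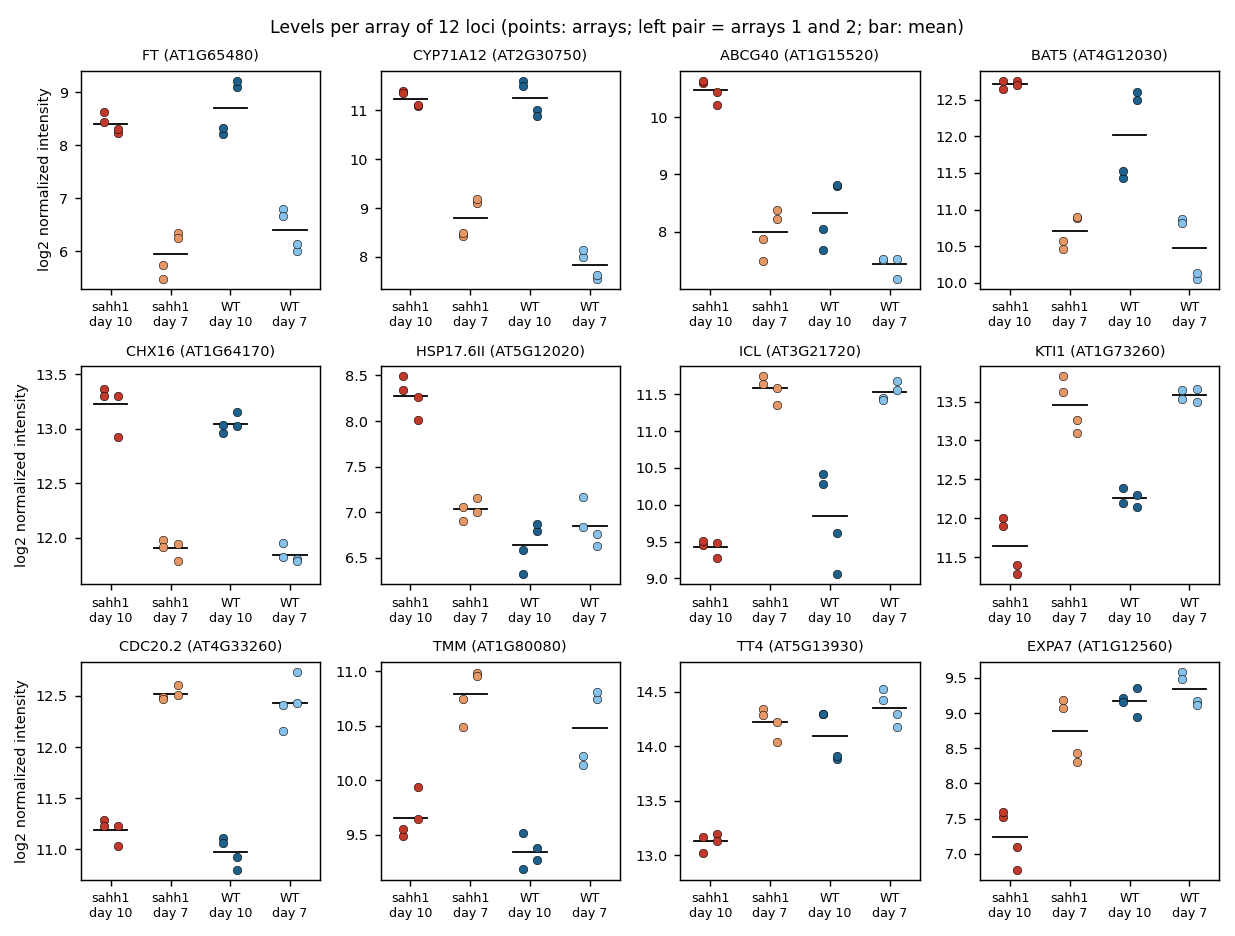
Log2 normalized intensity of 12 loci on each array of sahh1 day 10, sahh1 day 7, wild type (WT) day 10 and WT day 7, with a bar at the mean of 4 arrays. In FT, CYP71A12, CHX16, ICL, KTI1, CDC20.2 and TMM both genotypes move alike, while HSP17.6II, TT4 and EXPA7 differ mainly between the sahh1 ages.

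A further set of risers was annotated as pseudogenes, a biotype of the reference annotation. This group was picked after its values were seen. Of the 70 risers 14 carried it (20%), against 12.6% of all loci, and of the 72 fallers 0. No biotype of any locus here names transposable elements, so some may be among the pseudogenes. Leaving out the day 4 groups, 157 of all 3827 pseudogene loci were higher (4.1%, close to the 3.73% of all loci) and 24 lower (0.627%, against 5.13%). In wild type that fit called 28 of them higher and 143 lower, against 3.93% and 3.41% of all loci. AT3G32195 had 12.28, 12.39, 12.06 and 12.14 in sahh1 at day 10, against 9.16, 9.27, 10.37 and 9.98 at day 7. The day 10 arrays were all higher, by 2.52 ± 0.36 on average (adjusted p = 0.0267), or 5.75-fold. Wild type stayed near the dim end at both ages (4.99, 6.24, 4.85 and 5.50 at day 10, against 5.44, 5.44, 5.87 and 5.38 at day 7). In sahh1 this locus averaged 6.0 at day 1, 7.74 at day 4, 9.69 at day 7 and 12.22 at day 10.

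Most other pseudogene risers were also higher in sahh1 than in wild type, at lower levels. AT5G28845 had 9.88, 9.76, 9.82 and 9.91 in sahh1 at day 10, against 7.69, 7.73, 7.58 and 7.72 at day 7, and its wild-type arrays lay between 6.0 and 6.63 at both ages. AT4G07850 rose by 1.64 (0.0328) and AT3G29210 by 1.59 (0.0206), with wild-type differences of -0.22 and -0.10. For 9 of the 14 the sahh1 day 7 arrays all lay above the 8 wild-type arrays of days 7 and 10. AT3G32092, with the largest rise of the 14 (3.33), and AT2G10405 (1.24) also had higher wild-type arrays at day 10 (2.01 and 1.5), and AT2G10405 was called there. Across the ages, sahh1 means were higher at each later age for 4 of the 14. Neither this order nor the position above wild type was counted over all loci.

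**Figure D3:**
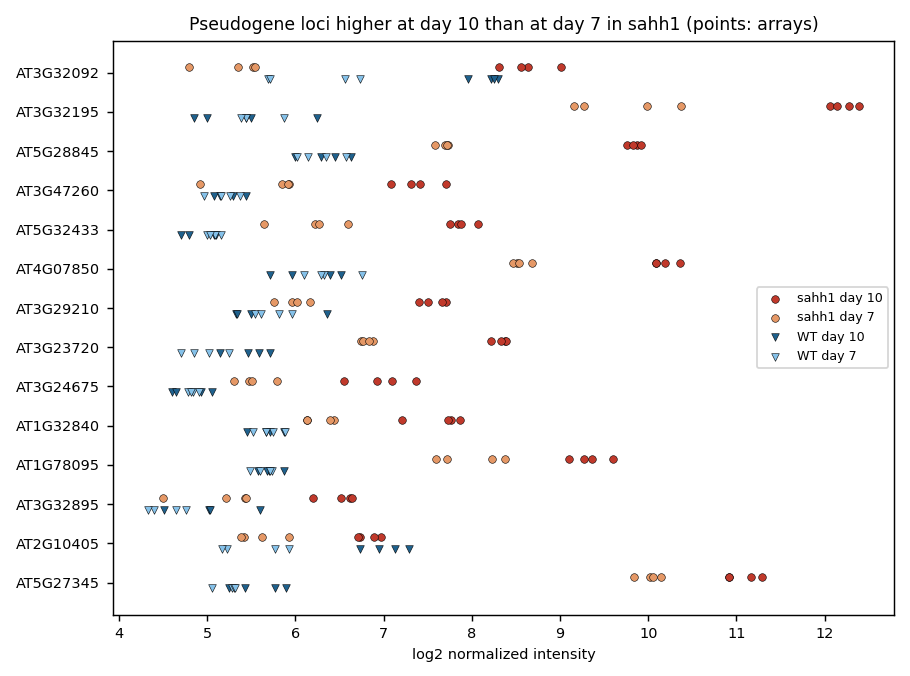
Log2 normalized intensity (horizontal axis) of the 14 pseudogene loci called higher at day 10, with 4 arrays each of sahh1 day 10 and day 7 as circles and of wild type (WT) day 10 and day 7 as triangles. The sahh1 day 10 arrays lie to the right of sahh1 day 7 arrays in every row, and wild-type arrays lie mostly below 7.

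Over all 3827 pseudogene loci the arrays lay wholly higher at day 10 for 463 in sahh1 (12.1%) and wholly lower for 134 (3.5%), against 14.5% and 16.1% of all loci. In wild type these counts were 180 and 660, where 14.9% of all loci were wholly higher and 15.2% wholly lower. The median difference was 0.07 in sahh1 and -0.12 in wild type. In sahh1 it turned to -0.399 on values as deposited, where that of all loci was -0.691. Most of these loci were dim, with a median level of 4.97 in sahh1 at day 10 and 4.96 at day 7, where that of all loci was 9.92 at both ages; the part of dim signal and its normalization in these counts was not tested. The best known loci silenced by DNA methylation were not called. QQS differed by -0.26 (10.23 at day 10 and 10.49 at day 7 in sahh1), FWA by -0.35, SDC by 0.68, and 0 of 8 such genes were called. IBM1, a histone demethylase gene sensitive to methylation in its intron, differed by 0.16. Of 19 genes of the DNA methylation and silencing machinery 0 were called; DCL3, the dicer of the RNA-directed pathway, had the lowest p there, with a difference of 0.53 (adjusted p = 0.113).

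Among the fallers ICL, isocitrate lyase of the glyoxylate cycle that turns seed oil into sugar, changed most. Its arrays read 9.45, 9.51, 9.48 and 9.28 in sahh1 at day 10, against 11.64, 11.75, 11.59 and 11.36 at day 7. The fall of 2.15 ± 0.27 (SE, adjusted p = 0.0206), 4.45-fold, continued a steady decline in sahh1, with means of 15.56 at day 1, 13.40 at day 4, 11.58 at day 7 and 9.43 at day 10. Wild type fell by 1.69 (0.0342). In a list of 15 oil mobilisation genes, assembled after the values were seen, ICL was the single member called. MLS, malate synthase and the partner of ICL in that cycle, differed by -0.60 (0.25). The median of the list was -0.26. It was 0.343 with median centring, where that of all loci was 0.304. Scaled to the reference genes it was 0.03, where that of all loci was -0.009.

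Genes of seed storage and maturation lay lower at day 10 by their median under each of the 5 scalings tried (-1.326 to -0.331). Of 22, ATS3, an embryo-specific gene, was called lower (-1.34, adjusted p = 0.0439), and 10 had day 10 arrays wholly below the day 7 arrays, 45.5% against 16.1% of all loci; the median difference was -0.44 in sahh1 and -0.40 in wild type. OLEO2, an oil body protein, had 6.29, 6.26, 7.51 and 7.61 in sahh1 at day 10 against 9.02, 8.59, 9.67 and 9.60 at day 7, a difference of -2.31 that was not called (0.0669). ABI3, a transcription factor of seed maturation, differed by -1.60 (0.0547), and the storage protein CRA1 by -1.94 (0.197). Leaving out the day 4 groups, 6 of the 22 were called lower, OLEO2 (0.0278) and ABI3 (0.0174) among them, and 1 higher. These are 27.3% lower and 4.55% higher, against 5.13% and 3.73% of all loci. ATS3 differed by -0.01 in wild type, and its change differed between genotypes at an unadjusted p of 0.00255, at a dim level of 5.09 in sahh1 at day 10 and 6.43 at day 7. Summed intensity of the list was 2813 to 3181 on sahh1 day 10 arrays and 4262 to 4850 on sahh1 day 7 arrays.

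KTI1, a Kunitz trypsin inhibitor that restrains cell death, had 12.01, 11.90, 11.28 and 11.39 in sahh1 at day 10, against 13.62, 13.83, 13.09 and 13.26 at day 7, and fell by 1.80 ± 0.26 (adjusted p = 0.0267). ALPHA-VPE, a vacuolar processing protease, fell by 1.14 (0.0296), and PLP9, a patatin-like lipase gene, by 1.24 (0.0365). CHI, here a chitinase-family gene and not chalcone isomerase, fell by 1.17 (0.034). RNS1, a secreted ribonuclease gene, fell by 1.59 (0.0477) as the single called member of 18 senescence genes, at levels of 4.89 and 6.48 that are dim.

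Mitotic and DNA replication genes lay mostly lower at day 10, and their median was below 0 under each of the 5 scalings (-1.179 to -0.184). Of 30 members 3 were called lower (0.237% of all loci were), 0 higher, 15 had day 10 arrays wholly below (50%, against 16.1% of all loci) and 27 had a negative difference, with a median of -0.36 in sahh1 and -0.18 in wild type. CDC20.2, an activator of the anaphase-promoting complex, had 11.29, 11.23, 11.23 and 11.03 in sahh1 at day 10, against 12.49, 12.46, 12.51 and 12.60 at day 7. The fall of 1.32 ± 0.16 (adjusted p = 0.0206) stood beside one of 1.46 in wild type (0.0143). CDC20.1, its neighbouring near-identical copy, fell by 1.17 (0.0253), and the array may not separate these copies. AUR2, an Aurora kinase, fell by 0.87 (0.0448). In the fit without day 4, 7 of the 30 were called lower (23.3%, against 5.13% of all loci) and 0 higher, adding the replication clamp PCNA1 and the helicase subunits MCM6 and PRL, also known as MCM7, among others. In wild type that fit called 4 of the 30 lower and 0 higher, against 3.41% and 3.93% of all loci. Summed intensity was 101208 to 109474 on sahh1 day 10 arrays, against 124274 to 133667 on sahh1 day 7 arrays. In bulk samples such as these, fewer cells of a type and less RNA per cell cannot be told apart.

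Root hair genes were low at day 10 in sahh1, although none of 22 was called in the full fit. Of the 22, 16 (72.7%, against 16.1% of all loci) had day 10 arrays wholly below the day 7 arrays and 0 wholly above, and 21 had a negative difference, with a median of -0.73 (-1.697 to -0.703 over the 5 scalings). In wild type the median was 0.00, with 11 members on each side of 0. EXPA7, an expansin of growing root hairs, had 7.53, 7.59, 6.77 and 7.09 in sahh1 at day 10, against 9.19, 9.07, 8.44 and 8.31 at day 7. The difference of -1.51 ± 0.28 just missed the threshold (adjusted p = 0.052), and it differed from the wild-type difference of -0.17 by -1.33 (95% interval -2.21 to -0.46, unadjusted p = 0.00667). RHS13, a cell wall protein gene, differed by -1.76 (0.086), XTH14, a xyloglucan enzyme, by -1.72 (0.0946) and LRX1, a leucine-rich repeat extensin, by -1.56 (0.0774). In the fit without day 4, 8 of the 22 were called lower and 0 higher (36.4% against 5.13% of all loci), including those 4, RSL4 and EXPA18, while the wild-type comparison called 1. The change differed from wild type at an unadjusted p under 0.05 for 8 of the 22, and for 0 after adjustment.

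Root hair genes were also followed over the earlier ages. EXPA7 averaged 12.71 at day 1, 9.97 at day 4, 8.75 at day 7 and 7.25 at day 10 in sahh1, against 12.75, 11.41, 9.34 and 9.17 in wild type. The sahh1 means were lower at each later age for 21 of the 22 genes, against 11 in wild type. For 20 of the 22 genes the highest sahh1 array at day 10 was under the lowest wild-type one. At day 7 this held for 7 of the 22, and the EXPA7 arrays of the genotypes overlapped. These orders of age and genotype were not counted over all loci, so no share stands beside them. RHD6, the regulator that starts root hair growth, differed by 0.21 between the sahh1 ages, with overlapping arrays. Markers of other root tissues also lay lower in sahh1 at day 10, with a median of -0.60 and 12 of 18 wholly below the day 7 arrays (66.7%, against 16.1% of all loci), and in wild type with a median of -0.41 and 8 wholly below. In the fit without day 4, 6 of the 18 were called lower in sahh1 (33.3%, against 5.13% of all loci) and 5 in wild type. CASP1, a Casparian strip protein of the endodermis, had 12.52, 12.61, 12.01 and 12.04 in sahh1 at day 10, against 13.62, 13.62, 13.04 and 13.18 at day 7. Summed intensity of the 18 markers was 30449 to 35159 in sahh1 at day 10 and 46890 to 52373 at day 7, against 32927 to 36190 and 50189 to 52371 in wild type at those ages. With the main scaling, the root tissue median thus lay below 0 in both genotypes, and the root hair median in sahh1 only. The part of root tissue in the root hair values was not tested.

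**Figure D4:**
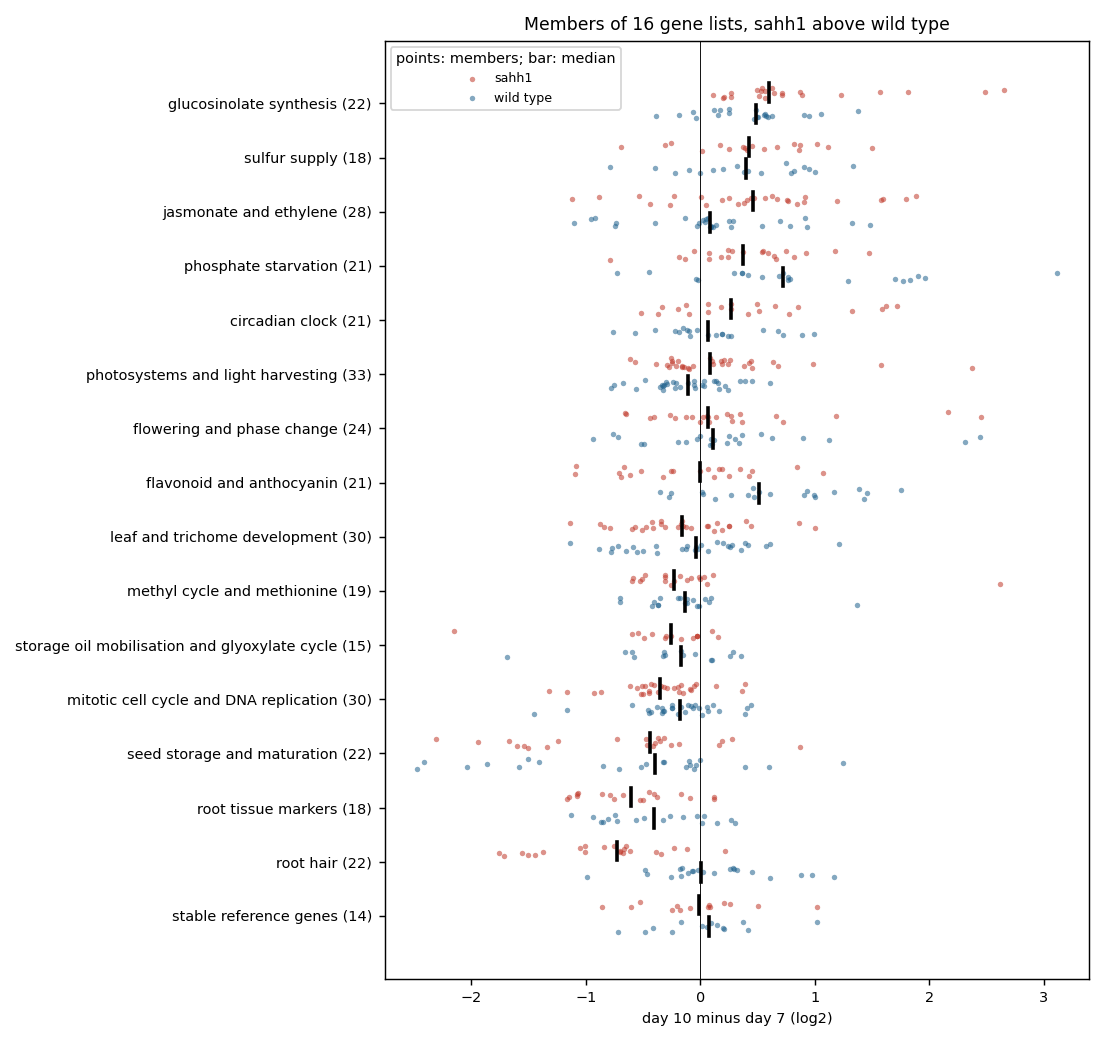
Day 10 minus day 7 (log2, horizontal axis) of each member of 16 gene lists, with sahh1 above wild type in each row, a bar at the median and the number of members after the name. Glucosinolate genes sit to the right of 0 in sahh1 (median 0.60, which turns to -0.227 on values as deposited, where that of all loci was -0.691). Root hair genes sit to the left in sahh1 (median -0.73) but around 0 in wild type.

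Glucosinolate synthesis genes lay higher at day 10 in sahh1 in all 22 cases, though 0 were called. Their median difference was 0.60 in sahh1, turning to -0.227 on values as deposited where that of all loci was -0.691, and 0.49 in wild type, and 16 had arrays wholly above (72.7%, against 14.5% of all loci) and 0 wholly below. CYP79F1, which starts the synthesis of aliphatic glucosinolates from methionine derivatives, had 11.09, 11.04, 11.89 and 11.76 in sahh1 at day 10, against 8.21, 8.08, 9.86 and 9.69 at day 7. The day 7 samples averaged 8.14 and 9.78, and the difference of 2.49 ± 0.77 did not reach the threshold (adjusted p = 0.152). AOP2, which modifies the side chain, differed by 2.65 (0.193), and MYB29, a regulator of the aliphatic branch, by 1.57 (0.145). Once the day 4 groups were left out, 3 of the 22 were called higher and 0 lower, namely CYP79F1 (0.0296), MAM1 (0.0433) and AT2G31790 (0.0321). That is 13.6% higher, against 3.73% higher and 5.13% lower over all loci. BAT5, which carries intermediates of this pathway across the chloroplast envelope and is not in the list, was called in the full fit. It had 12.64, 12.76, 12.75 and 12.69 in sahh1 at day 10, against 10.47, 10.57, 10.88 and 10.90 at day 7, a rise of 2.01 ± 0.35 (0.043).

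Sulfur genes, which supply this pathway, lay higher as well, with a median of 0.43 in sahh1 and 0.40 in wild type. In sahh1 it was -0.197 on values as deposited, where that of all loci was -0.691. Of the 18, 9 were wholly higher (50%, against 14.5% of all loci), but 0 were called. In the methionine and methyl cycle 0 of 19 were called. The median was -0.23 (0.197 with median centring, where that of all loci was 0.304). Of the 19, 9 were wholly lower (47.4%, against 16.1% of all loci) and 2 wholly higher. HMT3, a homocysteine methyltransferase and 1 of those 2, had 9.48, 9.80, 10.55 and 10.61 in sahh1 at day 10, against 7.38, 7.37, 7.47 and 7.76 at day 7, a difference of 2.62 ± 0.49 (adjusted p = 0.0528). SHM4, a serine hydroxymethyltransferase, differed by -0.60 ± 0.11 (0.0525) and SAHH2, the second SAH hydrolase gene, by -0.12 with overlapping arrays. Without the day 4 groups HMT3 was called higher (0.0174) and 4 members lower, SHM4 (0.0161), MTHFR2 (0.0308), SAHH1 (0.0327) and SAM1 (0.0284). These are 5.26% higher and 21.1% lower, against 3.73% and 5.13% of all loci.

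TT4, chalcone synthase and the entry to the flavonoids, had 13.16, 13.03, 13.19 and 13.13 in sahh1 at day 10, against 14.34, 14.29, 14.22 and 14.04 at day 7. Every day 10 array was lower, and the fall of 1.09 ± 0.19 (adjusted p = 0.0425) was 2.14-fold. Wild type differed by -0.26, and the change differed between genotypes by -0.84 (95% interval -1.44 to -0.23, unadjusted p = 0.0111). TT4 was the single call of 21 flavonoid and anthocyanin genes, whose median difference was -0.003 in sahh1 and 0.51 in wild type. The change differed from wild type at an unadjusted p under 0.05 for 4 of the 21. GSTF12, needed to bring anthocyanins into the vacuole, differed by -1.09 (0.524) and the glucosyltransferase gene AT4G14090 by 1.07 (0.054).

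Leaf genes gave 1 call in each direction. TMM, a receptor that spaces stomata and is active early in their lineage, had 9.48, 9.55, 9.64 and 9.94 in sahh1 at day 10, against 10.74, 10.49, 10.98 and 10.95 at day 7, a fall of 1.14 ± 0.20 (adjusted p = 0.0425). FMA, also known as FAMA, which acts in the last step to guard cells, rose by 0.86 (0.0425). The wild-type differences had the same signs, -1.14 and 0.61. Of 30 leaf and trichome genes 13 were wholly lower at day 10 (43.3%, against 16.1% of all loci), with a median of -0.16 (-1.009 to -0.015 over the 5 scalings), and 3 wholly higher (10%, against 14.5%). In the fit without day 4, 5 were called lower, GRF1 and AS2 among them, and 1 higher. These are 16.7% lower and 3.33% higher, against 5.13% and 3.73% of all loci. In wild type that fit called 7 of the 30 lower and 2 higher, against 3.41% and 3.93% of all loci.

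Of the photosystem and light harvesting genes 0 of 33 were called, 6 were wholly higher (against 14.5% of all loci) and 8 wholly lower (24.2%, against 16.1%). The median was 0.09 in sahh1 and -0.11 in wild type. In sahh1 it was -0.332 on values as deposited, where that of all loci was -0.691. Scaled to the reference genes it was 0.35, where that of all loci was -0.009. LHCB2.1, a light harvesting protein of photosystem II, stood out at 15.07, 15.19, 14.00 and 14.38 in sahh1 at day 10, against 13.33, 13.16, 12.97 and 12.85 at day 7 (difference 1.58, adjusted p = 0.0656; wild type 0.46). LHCB3 differed by 0.98 (0.0796; wild type 0.03). When the day 4 groups were left out, 3 of the 33 were called higher, LHCB2.1 (0.0294), LHCB3 (0.0383) and PSAD-2 (0.046), and 0 lower. That is 9.09% higher, against 3.73% higher and 5.13% lower over all loci. In wild type that fit called 0 of the 33 higher and 3 lower, against 3.93% and 3.41% of all loci. Summed intensity of the 33 genes was 991403 to 1115043 in sahh1 at day 10 and 1010783 to 1027716 at day 7, which overlap. Of 16 carbon fixation and 14 chlorophyll synthesis genes 0 were called.

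**Figure D5:**
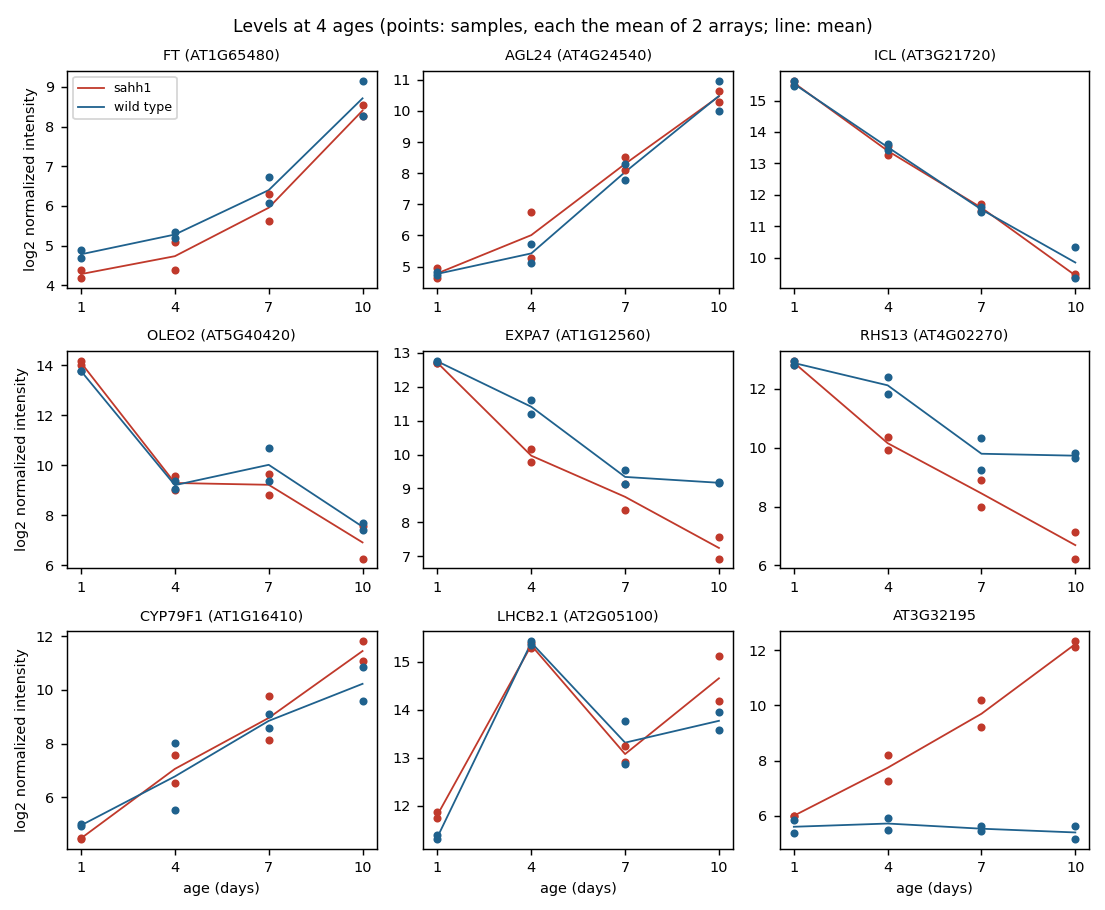
Log2 normalized intensity of 9 loci at 1, 4, 7 and 10 days in sahh1 and wild type, with points for the 2 samples of each group and lines through their means. FT, AGL24 and CYP79F1 climb and ICL declines alike in both genotypes, EXPA7 and RHS13 part after day 1, and AT3G32195 climbs in sahh1 but not in wild type.

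The clock list gives a view of the hour of harvest, which the labels do not state. None of 21 clock genes was called, but 6 were wholly higher at day 10 in sahh1 (28.6%, against 14.5% of all loci) and 2 wholly lower (9.52%, against 16.1%). The median was 0.27 in sahh1 and 0.06 in wild type. On values as deposited it was -0.461 in sahh1, where that of all loci was -0.691. PRR7 differed by 1.33 (adjusted p = 0.0652), CCA1 by 1.62 (0.175) and AT3G54500, also known as LNK2, by 1.72 (0.0666). In the fit without day 4, PRR7 (0.0166) and AT3G54500 (0.0158) were called higher and 0 lower. That is 9.52% of the list higher, against 3.73% higher and 5.13% lower over all loci. In wild type that fit called 0 of the 21 higher and 1 lower, against 3.93% and 3.41% of all loci. Among morning genes, CCA1 at 1.62 stood beside LHY at 0.06, RVE1 at 0.27 and RVE2 at -0.52. Among evening genes, GI differed by 0.65, TOC1 by 0.06, PCL1, also known as LUX, by -0.33 and ELF3 by -0.37. Whether the differences follow the time of day was not tested. The samples within a group also varied, since PRR9 read 8.10, 7.68, 5.96 and 5.71 on the day 10 sahh1 arrays. For 15 of the 21 clock genes sample 1 was higher than sample 2 in each of the sahh1 and wild-type groups of days 10 and 7, and sample 2 was higher for 0. Such a shared order in either direction held for 71.4% of the clock genes and 15.8% of all loci. What a sample number shares is not given in the labels, and the part of harvest time in the other changes was not tested.

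Among genes often used as stable references, YLS8, a splicing factor gene, fell by 0.86 ± 0.14 (adjusted p = 0.0354) as the single call of 14, and the median of the list was -0.02. Without the day 4 groups 2 of the 14 were called higher, UBQ10 among them, and 3 lower. These are 14.3% higher and 21.4% lower, against 3.73% and 5.13% of all loci. EMB1080, a protein of the small cytosolic ribosomal subunit, fell by 1.08 ± 0.13 (0.0206), with 12.97, 12.89, 13.05 and 13.21 in sahh1 at day 10 against 14.18, 14.19, 14.06 and 14.00 at day 7. In wild type EMB1080 differed by -0.61, and its change differed between genotypes at an unadjusted p of 0.0315.

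Lists of hormone and nutrient response gave no call in sahh1. With the main scaling, jasmonate and ethylene genes had a median of 0.46 (28 members), phosphate starvation genes 0.38 (21), and touch and early wound genes 0.34 (21). Abscisic acid and cold genes had 0.05 (26) and nitrate and nitrogen genes 0.07 (21). Medians were -0.04 for iron deficiency genes (20), -0.12 for auxin early response genes (28) and -0.16 for cytokinin genes (24). Gibberellin and brassinosteroid genes had -0.12 (23), and growth expansins and xyloglucan enzymes -0.18 (20). All the positive medians turn on values as deposited, where that of all loci was -0.691. All the negative ones except that of gibberellin and brassinosteroid genes turn with median centring, where that of all loci was 0.304. Relative to all loci, only the abscisic acid and cold median turned under either scaling (-0.09). For phosphate starvation genes the wild-type median was higher, 0.72. There 15 of 21 were wholly higher, where 14.9% of all loci were. In sahh1 7 of the 21 were wholly higher (33.3%, against 14.5% of all loci). The member with the lowest p in sahh1, PHT1;1, went the other way (-0.79, adjusted p = 0.0928), with arrays wholly lower. Of the jasmonate and ethylene genes, ERF2, an ethylene response factor, had the lowest p (1.19, adjusted p = 0.0843), and 8 of the 28 were wholly higher at day 10 (28.6%, against 14.5% of all loci) and 3 wholly lower (10.7%, against 16.1%). Of 22 phenylpropanoid and lignin genes (median -0.21) and 17 of carbon and energy starvation (median -0.04) 0 were called.

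By lowest p of the difference between genotypes in the change with age, the named genes also include COR413IM1, a cold-regulated chloroplast membrane protein gene. It had 13.66, 13.53, 12.72 and 12.80 in sahh1 at day 10, against 11.33, 11.46, 12.11 and 12.39 at day 7, a difference of 1.36 in sahh1 and -0.73 in wild type (unadjusted p = 0.00222 for the difference of 2.08). SAUR24, an auxin-responsive gene, differed by 0.87 in sahh1 and -0.86 in wild type (0.00315). LHB1B1, a light harvesting gene, differed by 0.18 in sahh1 and -1.29 in wild type (0.00336). EXT12, an extensin gene, differed by -0.48 in sahh1 and 0.59 in wild type (0.00441), and XTH10, a xyloglucan enzyme gene, by -0.54 and 0.34 (0.00198).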

How the data were processed

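The deposited values are normalized intensity per locus on a linear scale, made by the authors with RMA per the submitters' processing notes, which give no version; background and summary settings are not given in the sources used here. RNA was total RNA of whole seedlings, labelled with Cy3 on NimbleGen arrays. Precision is limited by the number of arrays.

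Log2 was taken and all 32 arrays were quantile normalized. Arrays 1 and 2, and 3 and 4, of each group were averaged into 16 samples, 2 a group. One mean was fitted for each of the 8 groups with limma 3.58.1 in R 4.3.3 (8 residual degrees of freedom, prior 2.54), with Benjamini-Hochberg adjustment over all 30385 loci and a threshold of 0.05. The contrasts were sahh1 day 10 minus day 7, the same in wild type, and their difference. The fit was tested on simulated data. "Wholly higher" or "wholly lower" means that the 4 day 10 arrays and the 4 day 7 arrays did not overlap. A list is described by its counts and median beside those of all loci, with no set test.

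Symbols come from RefSeq by locus tag (29996 of 30385 loci found, 10357 with a symbol), and SAHH1 is the locus listed there as HOG1. No coordinates are given, since the table's build is not stated. The named genes are the 10 largest rises and 10 largest falls called with a symbol, arrays that do not overlap and a level above the median; up to 4 called members of each list, or the one with the lowest p; SAHH1, SAHH2, QQS, IBM1 and FWA; the 10 with the lowest p of the difference between genotypes; and all clock genes. Members and lists were chosen with earlier results of these data known. The pseudogenes, AGL24, SPL3 and other list members given beside these were chosen after their values were seen. Alternatives changed the normalization, the filter on dim loci, the weights, the prior, the groups fitted, the replicate unit and the samples.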

Additional observations from a re-analysis of the deposited data

Results flagged for a closer look

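In 4 of 166 group checks (83 named genes in the 2 sahh1 groups of 4 arrays) 1 array lay far from the other 3, by a gap above Dixon's critical value for 4 samples. Such a check marks about 1 group in 20 by chance when the 4 values are independent. These arrays come in close pairs, so the 4 flags cannot be set against that rate. CHX16 read 12.93 on array 4 of sahh1 day 10, against 13.30 to 13.37 on the others. PRR3 read 13.32 on array 3 of sahh1 day 10, against 13.37 to 13.38. PCL1 read 12.18 on array 1 of sahh1 day 10, against 12.40 to 12.43. DCL3 read 10.63 on array 2 of sahh1 day 7, against 10.34 to 10.38.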

How the results depend on the processing

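All 27 called named genes kept their direction in sahh1 under each alternative run, but the number of calls moved widely. Calls in sahh1 (142) and wild type (89) were 18457 and 18887 as deposited, 7156 and 5330 with median centring, 446 and 721 with cyclic loess, 2932 and 2283 scaled to the reference genes, 448 and 386 without the dimmest 25% of loci, 2391 and 1531 with array weights, 547 and 412 with an intensity trend and robust prior, 0 and 0 with the contrast's groups alone, 5765 and 5733 with 32 arrays as replicates, 2595 and 2317 with the pair as a random block, and, in settings chosen after seeing the data, 2693 and 2232 without both day 4 groups. With the 4 sahh1 groups alone in the fit 0 loci were called in sahh1, whether quantile normalization ran over all arrays (a setting chosen after seeing the data) or over the sahh1 arrays. As deposited, 73 sahh1 calls were higher and 18384 lower, around a median of -0.691; with median centring 6484 were higher and 672 lower, around 0.304; scaled to the reference genes 1119 were higher and 1813 lower. Leaving out 1 sample gave 0 to 1 calls in sahh1, 0 to 39 in wild type and 0 to 1 for the difference between genotypes, where the arm with 1 sample is assumed to vary like the other groups. That difference gave 30 calls with 32 arrays as replicates and 27 with a replicate block by array number, and 0 in the other settings. The replicate block by sample number gave 37 calls in sahh1 and 16 in wild type, and by array number 5788 and 5765. Over the 15190 loci brighter than the median locus, same-numbered samples of the 2 ages deviated together in sahh1 (r = 0.32) and apart in wild type (-0.329). The labels do not say what a number shares, and with 2 samples a group the number was not used as a block in the reported fit, although most clock genes kept 1 order of the samples in all 4 groups. With the numbers of wild type day 7 crossed, 17 loci were called in wild type. As deposited, 5 genes turned to lower and were called: DCL3 (-0.433), IBM1 (-0.83), bZIP44 (-0.867), LHY (-0.951) and TOC1 (-0.429). The cause of these shifts was not tested, and the leave-one-out and group-alone fits also hold fewer samples.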

Other observations

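The locus with the largest change in sahh1 has no symbol. AT1G65352, a protein-coding locus, had 8.54, 9.01, 6.89 and 8.46 in sahh1 at day 10, against 4.45, 3.95, 4.40 and 4.1 at day 7. The rise was 4.00 ± 0.38 (limma's adjusted p = 0.00991), while wild type rose by 2.25 (0.044), with 6.26, 7.35, 6.11 and 6.29 at day 10 against 4.33, 3.90, 4.43 and 4.33 at day 7. All day 7 arrays of both genotypes lay below the lower quartile over loci and arrays (5.505), where signal is dim. The change differed between genotypes by 1.75 at an unadjusted p of 0.00795. AT1G65352 was chosen after its values were seen.

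Genes encoded in the organelles were not called. Of 67 plastid-encoded genes 54 had a positive difference in sahh1 (median 0.25, wild type 0.03), and of 97 mitochondrially encoded genes 79 did (median 0.41, wild type 0.23). Most had overlapping arrays: 7.46% of the plastid and 4.12% of the mitochondrial genes were wholly higher in sahh1, against 14.5% of all loci. Wholly lower were 1.49% and 0%, against 16.1%. Of 44 ribosomal protein genes named RPS or RPL 1 was called lower, and 32 had a negative difference (median -0.19, wild type -0.08). Of these 44, 40.9% were wholly lower and 9.09% wholly higher in sahh1, against 16.1% and 14.5% of all loci. These lists were assembled after the values were seen.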
